A study of Mus musculus with 2 samples.

Results

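Cholinergic neurons whose transcripts contained little *Malat1* were examined in single-cell RNA-seq data from the ventral parafacial region of the mouse medulla, which lies next to the facial motor nucleus. A cell barcode was counted as a member when at least 2 of the 3 cholinergic genes *Chat*, *Slc18a3* and *Slc5a7* had a UMI (unique molecular identifier, 1 per captured transcript), *Slc32a1* had none, the summed UMIs of *C1qa*, *C1qb*, *Cldn5* and *Flt1* were at most 2, and *Malat1* made up less than 3% of all UMIs. Members were sought among barcodes with at least 800 genes, at most 50 hemoglobin UMIs and at most 20% mitochondrially encoded UMIs. Of 12395 such barcodes, 164 were members. Members were thus chosen by their measured counts of the cholinergic genes, *Slc32a1*, the glial and vascular genes and *Malat1*, and values of these are given as a description.

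The samples were 2 pools of dissociated cells from wild type C57BL/6J mice at 10 days of age, each from 8 animals, 4 male and 4 female. One pool came from untreated mice (batch 1) and the other from mice given 4OH-tamoxifen, the ligand used to switch on inducible Cre recombinases, at 0.2 mg per day for 3 days (batch 2). Each condition was thus 1 library, and condition, batch and library cannot be told apart. There were 21 members in the untreated library, 0.628% of 3345 barcodes (95% interval 0.389–0.958%), and 143 in the 4OH-tamoxifen library, 1.58% of 9050 (1.33–1.86%). Intervals of shares (Clopper-Pearson), levels (Poisson) and ratios (conditional) are exact and cover counting error only. Intervals of medians are order-statistic intervals over the barcodes of 1 library. The median depth in UMIs was 3632 (untreated) and 2466 (4OH-tamoxifen) over all filtered barcodes. The 2 libraries had 40 barcode sequences in common, none of which belonged to a member of both.

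Motor neurons of the brainstem are cholinergic. ChAT (*Chat*) makes acetylcholine, the vesicular transporter VAChT (*Slc18a3*) loads it into vesicles, and the high-affinity choline transporter (*Slc5a7*) takes choline back up after release. Their thick axons are built on neurofilaments (*Nefl*, *Nefm*, *Nefh*) and peripherin (*Prph*), the transcription factor *Isl1* specifies them during development, and branchial and visceral motor neurons of the hindbrain also use *Tbx20*. *Malat1* is a long non-coding RNA that is retained in the nucleus of nearly every cell type. *Malat1* lies at 19:5795690-5802672 on the minus strand of GRCm38 (GENCODE vM21, lincRNA). *Slc18a3* (14:32462438-32464850) lies within the span of *Chat* (14:32408203-32465989) on the same strand, inside an intron in 4 of the 8 annotated *Chat* transcripts and overlapping none of its exons.

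The *Malat1* limit cut through the cholinergic barcodes of both libraries. Without that limit the rule took 59 untreated and 256 4OH-tamoxifen barcodes, and those below 3% were 35.6% (23.6–49.1%) and 55.9% (49.5–62.0%) of them. The other 38 and 113 barcodes are called the high-*Malat1* cholinergic barcodes here. The *Malat1* share ran from 0.0731% to 2.95% in untreated members (median 1.89%) and from 0.0316% to 2.94% in 4OH-tamoxifen members (median 0.736%). The nearest barcodes above the limit were at 3.04% and 3.02%, so the limit fell in no gap. Under 1% *Malat1* were 5 of 21 untreated and 81 of 143 4OH-tamoxifen members. A low *Malat1* share was not particular to cholinergic barcodes, because it also held for 82.7% and 70.8% of other neurons, defined here as barcodes with neuronal genes, none of the cholinergic genes and at least 2 UMIs of *Slc32a1* or *Slc17a6*. It held for 85.0% and 74.3% of microglial barcodes and for 38.4% and 32.8% of all barcodes that passed the filters.

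In the 4OH-tamoxifen library members held more RNA and a larger mitochondrial share than the high-*Malat1* barcodes, while in the untreated library the 2 groups were close. The median was 8466 UMIs (interval 7065–9167) and 3414 genes in 4OH-tamoxifen members against 3294 UMIs and 1812 genes in high-*Malat1* barcodes. In the untreated library it was 4648 UMIs (3032–6098) and 2575 genes in members against 4221.5 UMIs and 2358 genes. The median mitochondrial share was 12.7% (11.5–13.8%) in 4OH-tamoxifen members against 5.12% in high-*Malat1* barcodes, and 6.04% (4.95–9.69%) against 5.65% in the untreated library. Across all 256 cholinergic barcodes of the 4OH-tamoxifen library, which share 1 library and its depth, Spearman's rho of the *Malat1* share was −0.60 with the mitochondrial share, here taken over the UMIs other than *Malat1*, and −0.45 with the log of total UMIs. Across the 59 untreated barcodes it was 0.06 and −0.01. Within members alone, rho with that mitochondrial share was −0.56 (n = 143) and, in the untreated library, −0.54 (n = 21). The largest untreated member had 23629 UMIs and contributed 18.3% of all UMIs of untreated members, against 1.87% for the largest of the 143 4OH-tamoxifen members. Untreated values that rest most on this barcode are given with and without it. Barcodes that met every other condition but exceeded the mitochondrial limit numbered 14 (untreated) and 21 (4OH-tamoxifen).

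**Figure D1:**
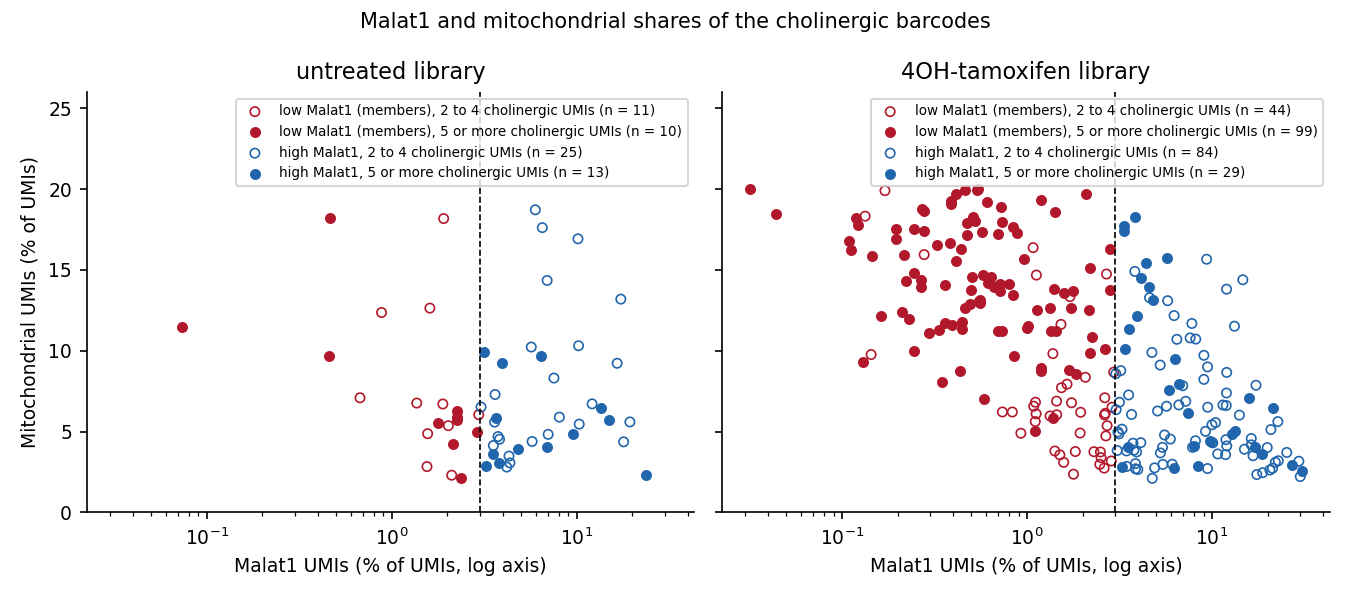
The *Malat1* share of UMIs (percent, log axis) is plotted against the mitochondrial share (percent) for each cholinergic barcode, with 1 panel per library, filled points for barcodes with at least 5 UMIs of the 3 cholinergic genes and a dashed line at the limit of 3%. In the 4OH-tamoxifen library the points below the line sit at higher mitochondrial shares (median 12.7% against 5.12%), and in the untreated library they do not separate (6.04% against 5.65%).

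The members carried *Slc5a7* and *Slc18a3* almost throughout and *Chat* in a minority. *Slc5a7* was found in 21 of 21 untreated and 141 of 143 4OH-tamoxifen members (98.6%), at 875 and 1695 CPM (UMIs of the gene per 1000000 summed UMIs of the group). *Slc18a3* was found in 20 (95.2%) and 137 (95.8%) members at 488 and 939 CPM. *Chat* was found in 7 untreated members (33.3%; 85.1 CPM, 42.5–152) and in 59 4OH-tamoxifen members (41.3%; 72.4 CPM, 57.4–90.0). Most members therefore entered the group through *Slc18a3* and *Slc5a7* without *Chat*, which was the case for 14 and 84 of them, while all 3 genes were found in 6 and 51. In microglial barcodes, which should lack these genes and whose median was 4104 and 2492 UMIs, *Slc5a7* was found in 5.90% and 7.14%, *Slc18a3* in 4.91% and 7.66%, and *Chat* in 0.246% and 1.30%. These shares are taken as the background. Whether it came from free RNA or doublets was not tested. High-*Malat1* barcodes had *Chat* in 42.1% and 53.1% at 120 and 178 CPM. *Chat*, *Slc18a3* and *Slc5a7* are the genes the rule uses, so their shares in both groups are a description only.

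Further motor neuron markers, which the rule did not use, stood above background in members. *Nefm*, the medium neurofilament subunit, was found in 18 of 21 untreated members (85.7%) at 2616 CPM (2344–2910) and in 129 of 143 4OH-tamoxifen members (90.2%) at 5028 CPM (4896–5162), against 151 and 323 CPM in other neurons. Microglial barcodes had it in 29.2% and 48.1%, at 88.5 and 247 CPM, so the level in other neurons was itself close to background. The median untreated member had 4 UMIs of *Nefm* and the median 4OH-tamoxifen member 29, and the highest had 143 and 145. *Prph*, an intermediate filament of peripherally projecting neurons, was found in 16 (76.2%) and 123 (86.0%) members at 1803 and 1594 CPM, against 34.0 and 36.9 CPM in other neurons and in 8.11% and 18.4% of microglial barcodes. *Isl1* was found in 8 untreated (38.1%, 18.1–61.6%) and 79 4OH-tamoxifen members (55.2%, 46.7–63.6%), against 0.49% and 1.82% of microglial barcodes, at 124 and 148 CPM. *Chodl*, a marker of fast motor neurons, was found in 14 (66.7%) and 99 (69.2%) members at 1099 CPM (926–1295) and 820 CPM (768–875). Microglial barcodes had *Chodl* in 4.67% and 5.45%. One untreated member held 84 of the 142 *Chodl* UMIs (59.2%), and without the largest member the untreated level was 549 CPM.

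The hindbrain motor factor *Tbx20* was found in 4OH-tamoxifen members, which were the deeper ones. *Tbx20* had no UMI in the 21 untreated members, a count at which a share with a UMI of up to 14.3% (3 of 21) could go undetected, and was found in 50 4OH-tamoxifen members (35.0%, 90.4 CPM), against 0.246% and 0.649% of microglial barcodes. The 4OH-tamoxifen members with *Tbx20* had a median of 10260.5 UMIs against 5373 for those without it. The receptor tyrosine kinase *Ret*, through which glial-cell-line-derived factors act on motor neurons, was found in 4 untreated members (147 CPM, or 56.8 CPM without the largest member) and in 102 4OH-tamoxifen members (71.3%, 700 CPM), and its co-receptor *Gfra1* in 11 and 102 (116 and 397 CPM). Microglial barcodes had *Ret* in 1.47% and 4.03% and *Gfra1* in 4.67% and 7.27%.

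**Figure D2:**
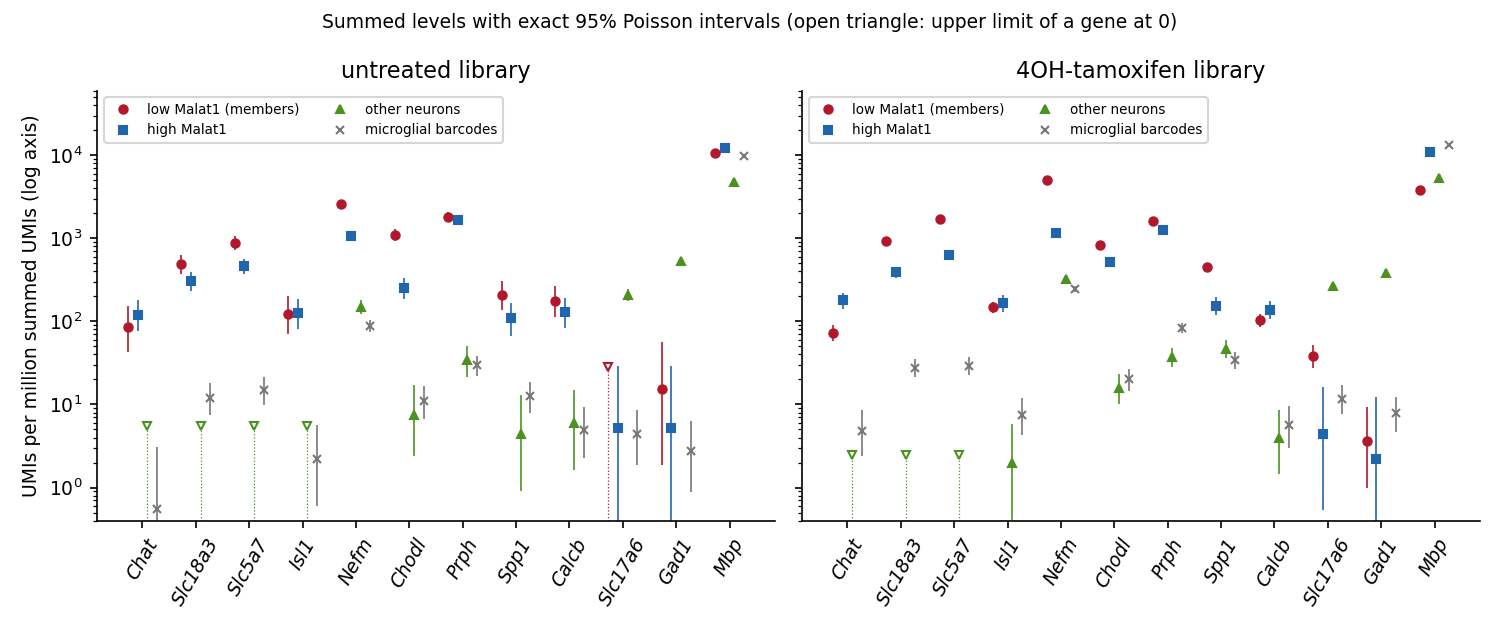
Levels (CPM, log axis, with exact Poisson intervals) of 12 marker genes are shown in members, high-*Malat1* cholinergic barcodes, other neurons and microglial barcodes of each library, with open triangles at the upper limit of a gene with no UMI. *Nefm* stands at 2616 and 5028 CPM in members against 151 and 323 CPM in other neurons.

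The label did not hold for every member. The number of UMIs of the 3 cholinergic genes was exactly 2, the fewest the rule allows, in 7 untreated (33.3%) and 26 4OH-tamoxifen members (18.2%), and 4 and 15 of these had no *Prph*. A set of early oligodendrocyte-lineage genes (*Gpr17*, *Bmp4* and *Enpp6*), called the early oligodendrocyte set here, was chosen after the values were seen. Its UMIs summed to at least 5 in 5 untreated members, 23.8% of members and 28.2% of their UMIs. None of these 5 had *Chat* or *Isl1*, each had a single UMI of *Slc18a3*, and they had between 1 and 4 UMIs of *Slc5a7*. Among 4OH-tamoxifen members 13 (9.09%, with 5.58% of the UMIs) met this mark, of which 11 had at most 6 summed UMIs of *Nefm* and *Prph*. Among all 614 and 1750 barcodes with such a sum, *Slc5a7* was found in 31.4% and 21.5%, above its share in microglial barcodes, at median depths of 6184.5 and 3561 UMIs, while *Slc18a3* was found in 5.37% and 5.60%. A further 5 members of the 4OH-tamoxifen library had at least 2 UMIs of *Slc17a6*, the vesicular glutamate transporter, and at most 1 of *Prph*, and none of them had *Chat* or *Isl1*. Scrublet, a doublet caller, marked 3 of the 143 4OH-tamoxifen members and none of the 21 untreated members. The label thus goes beyond the data for the barcodes with 2 cholinergic UMIs and no *Prph*. It also does so for the 5 untreated and 11 4OH-tamoxifen barcodes of the oligodendrocyte set with few *Nefm* and *Prph* UMIs, and for the 5 with *Slc17a6*. All of these are called members by the rule only. The other 2 4OH-tamoxifen barcodes of that set had 37 and 58 cholinergic UMIs.

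A stricter group was therefore formed, after the values were seen, from members with at least 5 UMIs of the 3 cholinergic genes. It held 10 of 21 untreated members (47.6%, 25.7–70.2%; 65.6% of their UMIs) and 99 of 143 4OH-tamoxifen members (69.2%, 61.0–76.7%; 86.8% of their UMIs). *Nefm* was found in 10 of 10 and 99 of 99 of them and *Isl1* in 7 and 67. No *Prph* was found in 1 and 3 of them, and the untreated one of these also had at least 5 UMIs of the early oligodendrocyte set. Among high-*Malat1* barcodes the same mark left 13 of 38 and 29 of 113.

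**Figure D3:**
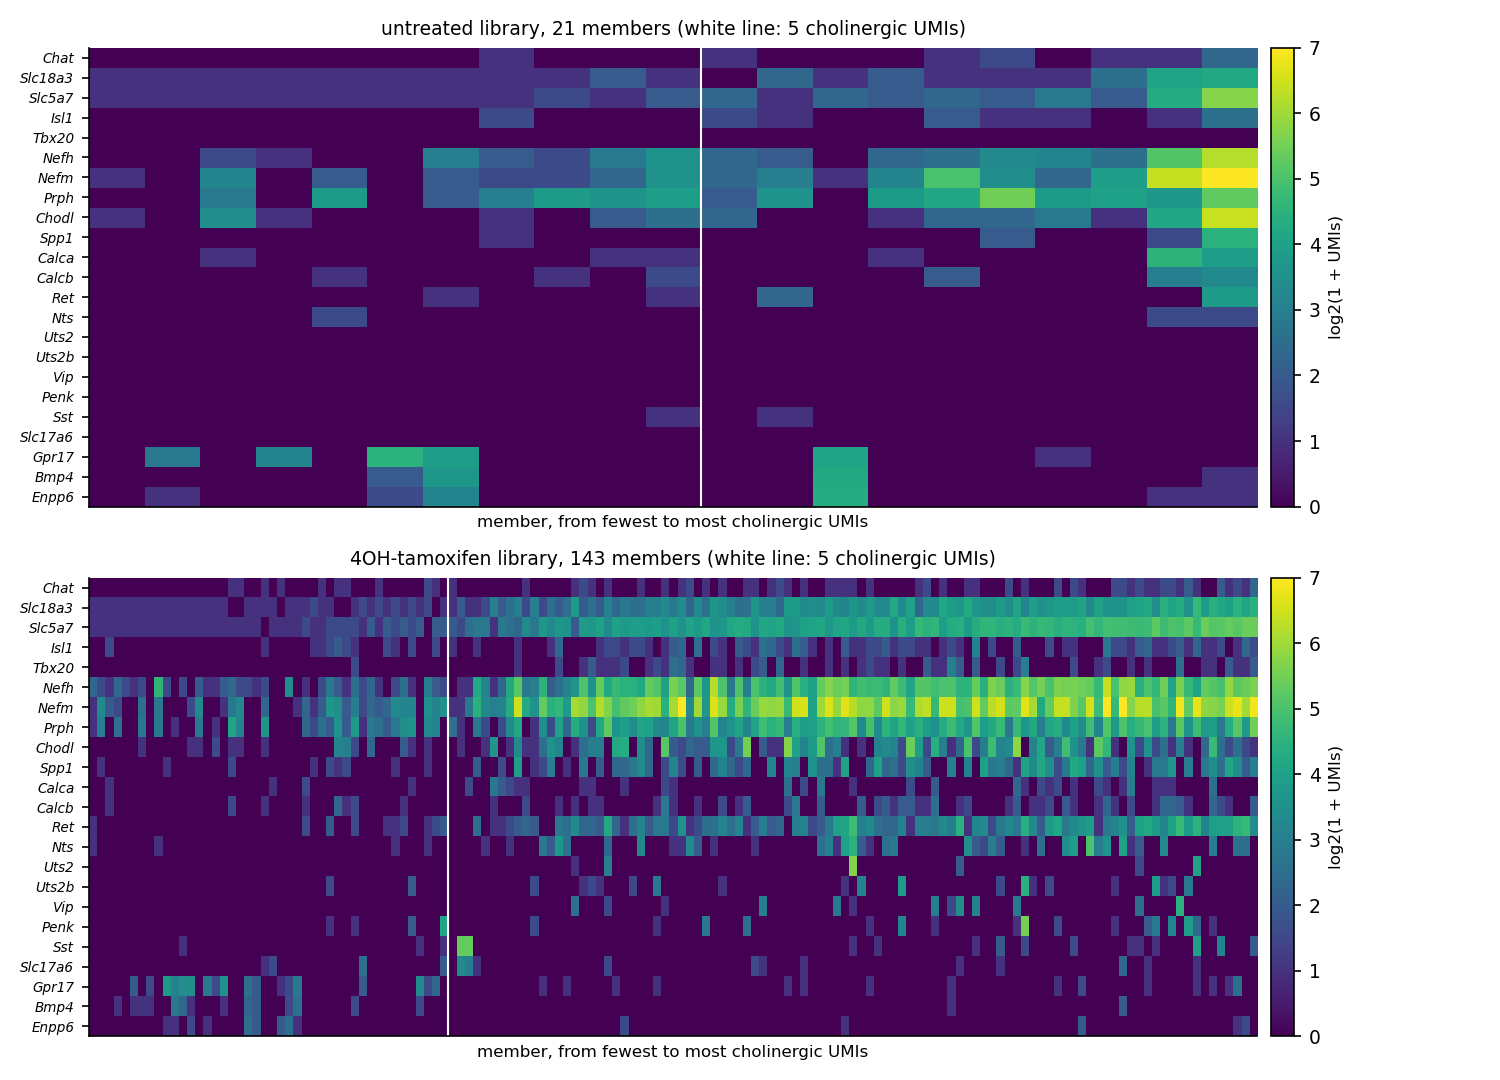
A heat map shows log2(1 + UMIs) of 23 genes (rows) in each of the 164 members (columns), sorted within each library by UMIs of the cholinergic genes, with a white line at 5 UMIs. Beyond the line nearly all columns carry neurofilament and *Prph* UMIs. *Chat* is found in 6 of 10 untreated and 49 of 99 4OH-tamoxifen columns beyond the line, and in 1 of 11 and 10 of 44 before it.

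Compared with other neurons, members stood furthest above in *Chodl* and *Prph*, and the 3 neurofilament genes were also at least 7.05-fold higher in both libraries. Of 2831 genes with at least 50 CPM and 20 UMIs in the higher group, 72 (2.54%) were at least 2-fold higher in members in both libraries and 167 (5.9%) at least 2-fold lower. *Chodl* was 149-fold (62.3–465) and 51.8-fold (34.6–81.3) higher (74.4-fold, 30.1–238, in the untreated library without the largest member), *Prph* 53.1-fold (34.5–85.4) and 43.2-fold (33.1–57.4), and *Nefm* 17.4-fold (13.9–21.9) and 15.6-fold (14.2–17.1), in the untreated and the 4OH-tamoxifen library. *Nefl* was 15.5-fold and 15.1-fold higher and *Nefh* 10.2-fold and 7.05-fold. *Slc10a4*, an orphan transporter of cholinergic vesicles, was 31.4-fold and 16.1-fold higher. *Calcb*, which encodes the peptide beta-CGRP, was 30.1-fold and 26.1-fold higher. In the 4OH-tamoxifen library, however, it was at least 2-fold lower in members than in high-*Malat1* barcodes, both with at least 5 cholinergic UMIs. *Spp1*, the secreted phosphoprotein osteopontin, was at 209 against 4.43 CPM and at 445 against 46.8 CPM, but 1 untreated member held 21 of its 27 UMIs there (77.8%), and without it the untreated level was 56.8 CPM.

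Other genes far above other neurons were *Pmp22* (26.2-fold and 35.8-fold, and 13.9-fold in the untreated library without the largest member), which encodes a peripheral myelin protein, *Ahnak2* (27.9-fold and 18.3-fold), *Susd2* (325 against 16.3 CPM and 348 against 25.1 CPM), *Tns1* (193 against 13.3 CPM and 212 against 15.2 CPM), which encodes the focal adhesion protein tensin, *Ecel1* (15.7-fold and 11.0-fold), which encodes an endopeptidase-like protein of motor neurons, and *Wfs1* (10.9-fold and 12.2-fold), which encodes an endoplasmic reticulum protein. With the largest member left out *Pmp22* had 13 untreated UMIs, *Ahnak2* 18, *Tns1* 18 and *Wfs1* 14, fewer than the 20 required, so none of these 4 was then counted. The sodium channel gene *Scn8a* was 2.02-fold and 2.34-fold higher, and 1.60-fold (0.956–2.58) in the untreated library without the largest member. *Vamp1*, the vesicle fusion protein of the neuromuscular junction, was 3.56-fold and 2.22-fold higher.

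The genes furthest below other neurons were those of peptidergic and inhibitory cells. *Nmb*, the neuromedin B gene of chemosensory retrotrapezoid neurons, was at 23.2 and 10.9 CPM in members against 1024 and 787 CPM (ratios 0.0227 and 0.0138). *Gal*, which encodes galanin, had no UMI in untreated members and stood at 4.52 CPM in 4OH-tamoxifen members, against 836 and 318 CPM. *Gad2*, a GABA-synthesizing enzyme, was at 0 and 3.62 CPM against 652 and 624 CPM. *Slc32a1* and *Slc17a6* helped to define the 2 groups, so a low level of GABA genes in members is partly set by the rule. Of 14 neuropeptide genes tested, 6 were at least 2-fold lower (*Scg2*, *Tac1*, *Nmb*, *Sst*, *Adcyap1* and *Gal*) and 1 higher (*Calcb*), beside 5.9% and 2.54% of all genes tested. *Calcb* had 14 untreated UMIs without the largest member, under the 20 required. With at least 5 cholinergic UMIs the same 6 of 12 neuropeptide genes were lower and 0 higher. Of 20 synaptic vesicle genes tested, 5 were lower (*Sv2a*, *Stx1a*, *Syt1*, *Vamp2* and *Cplx2*) and 1 higher (*Vamp1*), with median log2 ratios of −1.11 and −0.08 against −0.45 and −0.18 for all genes. Without the largest member of each library 42 of 2724 genes were higher, and 47 of the 72 could still be compared. With at least 5 cholinergic UMIs, 50 of 2523 genes (1.98%) were higher and 175 (6.94%) lower. The 4OH-tamoxifen members alone had 403 of 4532 genes (8.89%) higher and 287 (6.33%) lower.

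Members were next compared with the high-*Malat1* cholinergic barcodes. Of 1737 genes, 67 (3.86%) were at least 2-fold higher in members in both libraries and 75 (4.32%) at least 2-fold lower. The higher genes were led by *Pja2*, *Wfs1*, *Tubb3* and *Tomm70a*, a mitochondrial import receptor, and the lower ones by myelin genes. In the 4OH-tamoxifen library alone 868 of 4782 genes (18.2%) were higher and 646 (13.5%) lower, so that far fewer genes passed once the untreated library was also required. The same split at 3% *Malat1* among inhibitory neurons of the 4OH-tamoxifen library gave 125 (3.3%) and 123 (3.25%) of 3790 genes. The 2 splits are not alike. Median depth was 4509 and 3795.5 UMIs in the inhibitory groups, against 8466 and 3294 UMIs in the cholinergic ones. The median *Malat1* share was 1.68% and 3.94%, against 0.736% and 7.37%. After every barcode was thinned to 2000 UMIs only 438 genes could be compared, among them 14 of the 67 and 28 of the 75. Of the 438, 4 were higher and 20 lower, and *Tubb3* and *Syp* no longer passed 2-fold. Without the largest member of each library 12 of 1518 genes were higher, all of them among the 67, of which 34 could still be compared. Lower were 63, of which 62 were among the 75, and all 75 could still be compared.

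*Tubb3*, a neuronal beta-tubulin, was 3.40-fold (2.47–4.75) higher in untreated and 5.16-fold (4.48–5.97) higher in 4OH-tamoxifen members, with 991 against 291 CPM and 2407 against 466 CPM. A single untreated member held 81 of its 128 UMIs there, and without the largest member the untreated ratio was 1.53 (1.01–2.29). *Pja2*, a ubiquitin ligase, was 3.59-fold (2.14–6.19) and 4.15-fold (3.33–5.23) higher. It was still 2.07-fold (1.12–3.85) higher in the untreated library without the largest member. *Syp*, the vesicle protein synaptophysin, was 3.13-fold (1.98–5.05) and 3.76-fold (3.15–4.51) higher, and 2.07-fold (1.22–3.54) higher in the untreated library without that member. *Slc10a4* was 2.82-fold and 2.95-fold higher, *Cadps*, which primes dense-core vesicles, 3.78-fold and 3.22-fold, *Atp6v1a*, a subunit of the vesicular proton pump, 2.89-fold and 3.95-fold, *Wfs1* 5.32-fold and 3.50-fold, and *Tubb5* 2.94-fold and 2.77-fold. Without the largest member *Wfs1* and *Atp6v1a* had fewer than 20 untreated UMIs, and their untreated ratios were 3.64 (1.38–10.7) and 2.04 (1.00–4.17). With at least 5 cholinergic UMIs the smaller log2 ratio of the 2 libraries was 0.78 for *Slc10a4* and 0.94 for *Cadps*, both below 2-fold. The 12 genes that remained without the largest member were *Syp*, *Slc10a4*, *Cadps*, *Vamp1*, *Tubb5*, *Dpysl2*, *Cyfip2*, *Pfn2*, *Nat8l*, *Ppp2r1a*, *Pja2* and *Nrep*. Of 14 synaptic vesicle genes tested, 5 were higher in both libraries (*Syp*, *Cplx1*, *Syn2*, *Vamp1* and *Sv2c*), beside 3.86% of all genes, and of these *Syp* and *Vamp1* remained without the largest member. The median log2 ratio of that list was 0.77 and 1.33, against −0.00 and −0.18 for all genes. Of 23 genes of axonal transport and the cytoskeleton tested, 2 were higher (*Tubb3* and *Tuba1b*), beside the same 3.86%, with medians of 0.49 and 0.59. Neither gene remained without the largest member.

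*Nefl* and *Nefm* were graded along the *Malat1* share in the 4OH-tamoxifen library, whereas *Prph* was nearly level. *Nefm* was 2.43-fold (2.04–2.90) higher in untreated and 4.39-fold (4.01–4.81) higher in 4OH-tamoxifen members, *Nefl* 2.09-fold and 4.45-fold, and *Nefh* 1.77-fold and 4.57-fold. Without the largest member the untreated ratios were 1.72 (1.404–2.097) for *Nefm*, 1.72 (1.52–1.94) for *Nefl* and 1.26 (0.97–1.63) for *Nefh*. *Nefl* (14:68083863-68089095, plus strand) lies within the annotated span of *Nefm* (14:68082590-68124846, minus strand). *Prph* had ratios of 1.08 (0.906–1.28) and 1.26 (1.15–1.39). *Isl1* had ratios of 0.992 and 0.899, both with intervals that include 1. In bins of 0–1%, 1–2%, 2–3%, 3–5%, 5–10% and at least 10% *Malat1*, *Nefl* in the 4OH-tamoxifen library stood at 11666, 8386, 6362, 3563, 2039 and 1292 CPM, lower in each bin than in the one before. *Nefm* stood at 5645, 4264, 3145, 1370, 1213 and 866 CPM, while *Nefh* was at 1767 CPM in the bin of 1–2% and at 2044 CPM in that of 2–3%. *Prph* over the same bins lay between 1187 and 1772 CPM. The bins held 81, 39, 23, 36, 38 and 39 barcodes, and median mitochondrial shares of 14.7, 8.5, 7.1, 6.2, 6.5 and 4.2% moved along them. Bins of the untreated library held 5 to 16 barcodes, and *Nefl* went from 9118 through 1906, 6343, 5232 and 1348 to 1458 CPM without such an order.

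**Figure D4:**
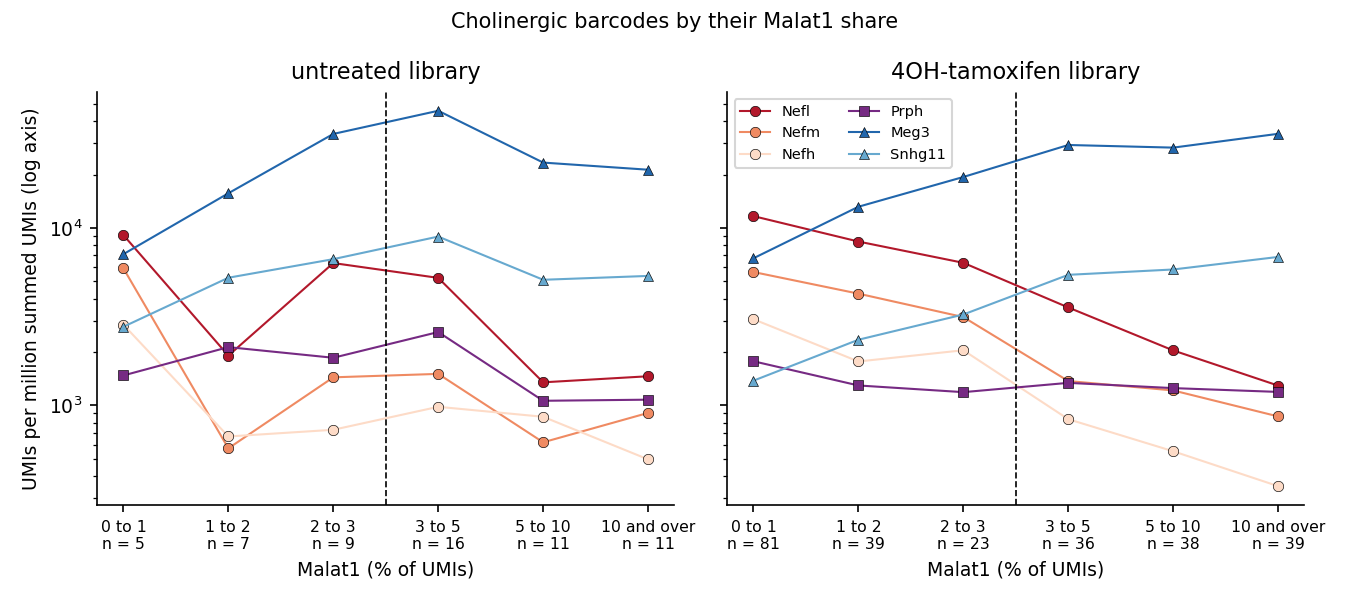
Levels (CPM, log axis) of *Nefl*, *Nefm*, *Nefh*, *Prph*, *Meg3* and *Snhg11* are plotted over 6 bins of the *Malat1* share, with 1 panel per library. In the 4OH-tamoxifen library *Nefl* goes from 11666 to 1292 CPM and *Meg3* from 6749 to 33972 CPM across the bins, while untreated bins of 5 to 16 barcodes show no steady order for *Nefl*.

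The level of *Meg3* was lower in members, by less than 2-fold in the untreated library. There the 5 members of the early oligodendrocyte set held 28.2% of member UMIs but 1 to 5 *Meg3* UMIs each, which lowers the untreated ratio. *Meg3* (12:109541001-109571726, plus strand), a maternally expressed non-coding RNA abundant in neurons, stood at 21175 against 31538 CPM in the untreated library (ratio 0.671, 0.642–0.703) and at 9751 against 30693 CPM in the 4OH-tamoxifen library (0.318, 0.310–0.326). *Snhg11*, a small nucleolar RNA host gene annotated as protein coding, had ratios of 0.760 and 0.301. Of 6 nuclear non-coding RNAs tested none passed 2-fold in both, with median log2 ratios of −0.36 and −1.53. Over the *Malat1* bins of the 4OH-tamoxifen library *Meg3* was at 6749, 13177, 19392, 29379, 28392 and 33972 CPM. Over the untreated bins it was at 7120, 15695, 33914, 45815, 23378 and 21309 CPM, highest at 3–5%. Spearman's rho of the *Malat1* share with *Meg3*, taken over other UMIs, was 0.47 across the 256 4OH-tamoxifen and −0.01 across the 59 untreated cholinergic barcodes. Within members alone it was 0.56 (n = 143) and 0.46 (n = 21). Of 12 mitochondrially encoded genes and 43 nuclear genes of the respiratory chain none passed 2-fold in both libraries, with median log2 ratios of 0.30 and 0.76 for the first and 0.13 and −0.20 for the second.

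Myelin genes led the list of those lower in members. *Mog*, a glycoprotein of the outer myelin surface, stood at 147 against 806 CPM in the untreated library (ratio 0.182) and at 59.7 against 457 CPM in the 4OH-tamoxifen library (0.131). Ratios were also low for *Apod* (0.103 and 0.161), *Mal* (0.0413 and 0.170), *Trf* (0.167 and 0.179), *Gsn* (0.190 and 0.191) and *Tspan2* (0.138 and 0.175). All of these are oligodendrocyte transcripts. The 5 oligodendrocyte markers together, all 5 with UMIs in every group, were at 13637 and 5870 CPM in members, 29089 and 23873 CPM in high-*Malat1* barcodes, 7162 and 8893 CPM in other neurons and 34470 and 37706 CPM over all barcodes that passed the filters. Under 5 cholinergic UMIs were found in 25 of 38 and 84 of 113 high-*Malat1* barcodes. The 5 astrocyte markers, all with UMIs in every group, were at 689 and 393 CPM in members, 1570 and 946 CPM in high-*Malat1* barcodes and 380 and 690 CPM in other neurons. Oligodendrocyte and astrocyte RNA thus both moved with this comparison, and their part in the other ratios was not tested. The comparison was repeated with at least 5 cholinergic UMIs on both sides.

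With at least 5 cholinergic UMIs, 31 of 751 genes (4.13%) were at least 2-fold higher in members in both libraries and 14 (1.86%) lower. The 4OH-tamoxifen library alone gave 642 of 3233 genes (19.9%) higher and 203 (6.28%) lower. Of the 75 genes lower without this mark only 9 still had enough UMIs to be compared, and 2 of these were lower again. On few untreated UMIs, *Mog*, *Apod*, *Trf* and *Gsn* were each at a higher CPM in untreated members than in the high-*Malat1* barcodes at this mark (log2 ratios 1.20, 0.69, 0.69 and 0.28), and *Mal* and *Tspan2* were lower by less than 2-fold (−0.72 and −0.63). *Mbp*, which encodes myelin basic protein, was at 10375 against 10408 CPM in the untreated library (ratio 1.00, 0.90–1.10) and at 2427 against 7225 CPM in the 4OH-tamoxifen library (0.34, 0.31–0.36). In the untreated library 1 member, a barcode of the early oligodendrocyte set, held 335 of the 880 *Mbp* UMIs. With barcodes of that set left out the ratios were 0.76 (0.68–0.85) and 0.34 (0.31–0.36). The lower genes included *Meg3* (ratios 0.41, 0.39–0.44, and 0.24, 0.23–0.25), *Snhg11* (0.48 and 0.22) and *Mirg* (0.31 and 0.36), a non-coding RNA of the same imprinted locus as *Meg3*. With the early oligodendrocyte barcodes left out, the untreated ratios were 0.51 (0.48–0.54) for *Meg3* and 0.58 (0.51–0.66) for *Snhg11*, both short of 2-fold. The ratio was 0.38 (0.20–0.71) for *Mirg*, with 15 UMIs in members. Of 5 nuclear non-coding RNAs tested these 3 were lower, with a median log2 ratio of −1.07 and −2.07 against 0.37 and 0.07 for all genes. In the 4OH-tamoxifen library alone 6 of 6 were lower, *Miat*, *Kcnq1ot1* and *Mir124a-1hg* being the others.

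*Meg3* per barcode showed how unlike the untreated members were. In the 10 untreated members with at least 5 cholinergic UMIs the lowest had no *Meg3*, the median was 37779 CPM and the highest was at 57005 CPM. In the 13 high-*Malat1* barcodes it ran from 31978 to 66363 CPM with a median of 50754 CPM, so the groups overlapped. In the 99 4OH-tamoxifen members it ran from 0 to 30599 CPM (median 7243 CPM, 6343–8315), and in the 29 high-*Malat1* barcodes from 0 to 75832 CPM (median 42644 CPM, 24844–46536). Without the largest member the untreated ratio was 0.53 (0.50–0.57) for *Meg3* and 0.60 (0.52–0.68) for *Snhg11*, both short of 2-fold. It was 0.37 (0.18–0.72) for *Mirg*, which still passed.

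Among the 31 higher genes with at least 5 cholinergic UMIs were *Nefm*, with 3584 against 1720 CPM (2.08-fold, 1.68–2.60) in the untreated and 5621 against 1650 CPM (3.41-fold, 3.01–3.88) in the 4OH-tamoxifen library, and *Tubb3*, which was 3.67-fold (2.38–5.85) and 3.25-fold (2.72–3.91) higher. *Tubb5* was 3.90-fold and 2.34-fold higher, *Tubb4b* 3.56-fold and 2.95-fold, and *Pja2* 4.95-fold and 2.82-fold. The chaperone genes *Hspa8* (3.41-fold and 2.27-fold) and *Hsp90aa1* (2.17-fold and 2.48-fold) and the 14-3-3 protein genes *Ywhag* (2.49-fold and 2.64-fold) and *Ywhah* (2.07-fold and 3.81-fold) were also higher. *Chodl* had ratios of 3.37, or 1.43 (0.86–2.41) without the largest member, in the untreated library and 1.07 (0.89–1.29) in the 4OH-tamoxifen library. *Prph* had ratios of 0.78 (0.62–0.97) and 1.28 (1.10–1.48), which lie on opposite sides of 1. *Isl1* had ratios of 0.67 and 0.61 (0.43–0.90). With the largest member also left out, 8 of 561 genes were higher (*Tubb4b*, *Pfn2*, *Clip3*, *Eif4g2*, *Hspa8*, *Ppp2r1a*, *Tubb5* and *Pja2*) and 10 lower. Of 10 synaptic vesicle genes tested with at least 5 cholinergic UMIs 2 were higher (*Syp* and *Snap91*), beside 4.13% of all genes tested. Neither is among the 8 that remained without the largest member. Untreated ratios without that member were 1.53 (1.20–1.96) for *Nefm*, 1.60 (0.94–2.74) for *Tubb3*, 1.61 (0.94–2.81) for *Hsp90aa1* and 1.49 (0.85–2.65) for *Ywhag*. They were 1.32 (0.73–2.40) for *Ywhah*, 2.24 (1.00–5.36) for *Tubb4b* and 2.94 (1.25–7.68) for *Pja2*. Within this group *Nefm* per barcode in 4OH-tamoxifen members had a median of 5360 CPM (4321–5859) against 1145 CPM (869–1557) in high-*Malat1* barcodes. In the untreated library the medians were 1929 CPM (499–6052) and 1629 CPM (860–2084), with overlapping intervals.

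**Figure D5:**
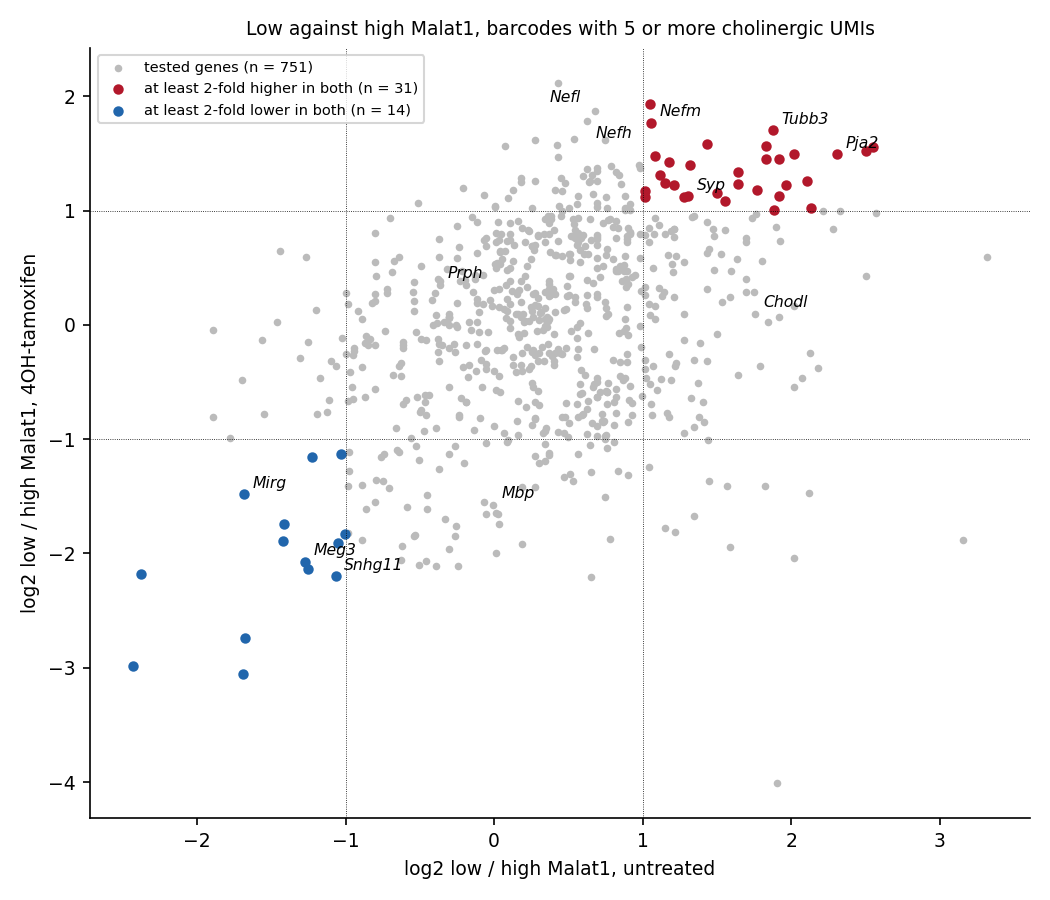
Each point is 1 of 751 genes, placed by its log2 ratio of members over high-*Malat1* barcodes in the untreated (horizontal) and the 4OH-tamoxifen library (vertical), among barcodes with at least 5 cholinergic UMIs. The 31 genes at least 2-fold higher in both libraries are red and the 14 lower are blue, and *Meg3* and *Snhg11* lie in the lower left.

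Members of the 2 libraries differed from each other, and this cannot be told apart from condition, batch and depth. Of 3030 genes, 674 (22.2%) were at least 2-fold higher in 4OH-tamoxifen members and 264 (8.71%) at least 2-fold lower, and the median log2 ratio of all genes was 0.44. Centred on that median, 273 were higher and 453 lower. *Ret* was 4.76-fold (3.03–7.95) higher in 4OH-tamoxifen members, and the same ratio was 1.00 among high-*Malat1* barcodes and 0.771 among other neurons. Without the largest member of each library it was 12.1 (5.56–33.2), on 6 untreated UMIs. *Rab3c*, a vesicle GTPase, was 6.64-fold (2.81–20.6) higher, with 1.33 and 1.07 in the other groups, and *Slc38a1*, an amino acid transporter with 3 untreated UMIs, 7.52-fold (2.53–36.8), with 1.33 and 1.14. *Esrrg*, an orphan nuclear receptor from the list of gamma and slow motor neuron genes, had 2 UMIs in 1 untreated member (15.5 CPM). It had 159 UMIs in 55 4OH-tamoxifen members (144 CPM). *Nefm* was 1.92-fold (1.72–2.15) higher, with 1.07 among high-*Malat1* barcodes and 2.14 among other neurons. *Meg3* was lower, at a ratio of 0.46 (0.442–0.480), with 0.973 and 1.10 in the other groups. Lower genes were led by *Ccdc163* (0.0254), whose 23 untreated UMIs all came from 1 member, followed by *Enpp6* (0.113), *Tcf7l2* (0.128) and *Bmp4* (0.131). Of the 32 untreated UMIs of *Tcf7l2*, which did not define the early oligodendrocyte set, 31 came from the 5 untreated members of that set.

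Peptide genes were each found in a part of the members. *Spp1*, found in 4 untreated and 81 4OH-tamoxifen members (56.6%), was at 209 and 445 CPM. *Calcb* was found in 6 and 55 members at 178 and 103 CPM. *Nts*, which encodes neurotensin, was found in 3 and 46 members at 46.4 and 248 CPM, with up to 31 UMIs in 1 member. Taking members with at least 3 UMIs in the 4OH-tamoxifen library, 31 had *Nts*, of which 21 also had *Chodl* and 21 also had *Spp1*, while 64 and 59 of all 143 had *Chodl* and *Spp1* at that mark. *Uts2b*, a urotensin gene, was found in 0 untreated members and in 21 4OH-tamoxifen members (83.2 CPM). *Penk*, the enkephalin precursor, was also found in 0 and 21 members (118 CPM in the latter, up to 46 UMIs), and 5 of the 7 members with at least 3 UMIs of *Uts2b* had as many of *Penk*, which 11 of all 143 had. *Vip* was found in 0 and 13 members (73.3 CPM). The paralog *Uts2* was found in 6 4OH-tamoxifen members, 1 of which held 63.3% of its UMIs. *Sst*, which encodes somatostatin, was found in 2 and 17 members, and the 5 members highest in it held 86.9% of the UMIs in the 4OH-tamoxifen library. These included 2 of the 5 members with *Slc17a6* described above, each with 40 UMIs.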

How the data were processed

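Single-cell RNA-seq libraries (10X v2 chemistry) were analysed for 1 untreated and 1 4OH-tamoxifen pool. The authors deposited a count of UMIs per gene and barcode, without normalization. The submitters' processing notes name bcl2fastq 2.18.0.12, Cell Ranger 2.2.0, mm10 and GRCm38. Free RNA and doublets remain in these counts, so a gene with 1 UMI need not come from the cell.

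Members and gene lists were chosen with earlier results of these data known. Barcodes were selected as in the report. Levels are CPM of summed UMIs. A gene was compared when it had at least 50 CPM and 20 UMIs in the higher group, and counted when its ratio passed 2 in the same direction in both libraries. Genes used by the rule were left out. With 1 library per condition no test was made. Ratios against fewer than 3 UMIs were computed against a floor of 3 UMIs per group and are bounds. The level of all intervals is 95%. The other groups were other neurons and microglial barcodes (*C1qa*, *C1qb* and *C1qc* present, *Cldn5* and *Flt1* absent). Shares were also computed after thinning to 2000 UMIs. The comparison was tested on simulated data. Named genes are the markers, up to 6 examples per list, the 12 with the largest ratio in each direction between *Malat1* groups, 12 above and 6 below other neurons, 8 in each direction between libraries and the 12 most variable, and others named were chosen after their values were seen. Python 3.11.15, numpy 2.4.6, scipy 1.17.1, pandas 2.3.3 and scanpy 1.11.5 (Scrublet) were used. Gene positions are from GENCODE vM21. Results for some genes are not reported here.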

Additional observations from a re-analysis of the deposited data

Results flagged for a closer look

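*Calca*, which encodes alpha-CGRP, went in opposite directions in the 2 libraries. It was 4.25-fold (2.27–8.46) higher in untreated members than in high-*Malat1* barcodes, whereas the 4OH-tamoxifen ratio was 0.161 (0.121–0.211). The difference between the libraries was not tested. Among untreated barcodes 1 member held 22 of the 40 *Calca* UMIs of members (55.0%), and among 4OH-tamoxifen barcodes 1 high-*Malat1* barcode held 159 of 189 (84.1%).

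Barcodes that the comparisons did not use also met the cholinergic and *Malat1* conditions. Beyond the limit of 20% mitochondrial UMIs lay 14 such untreated and 21 such 4OH-tamoxifen barcodes. Their median was 3311 and 6477 UMIs and their median *Malat1* share 0.118% and 0.361%, both below the medians of members.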

How the results depend on the processing

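Shares and levels were limited by 21 untreated members and their depth. A *Malat1* limit of 2% or 4% left 12 or 33 untreated members. All 3 cholinergic genes left 6 and 51 members (untreated, then 4OH-tamoxifen), of which 83.3% and 72.5% had *Isl1*, 100% and 100% *Nefm* and 100% and 80.4% *Chodl*, with medians of 11070 UMIs and 4021 genes in the latter. At most 10% mitochondrial UMIs left 49 4OH-tamoxifen members, with medians of 3424 UMIs, 2026 genes and 6.21% mitochondrial UMIs, and with *Isl1* in 40.8%, *Nefm* in 81.6% and *Chodl* in 42.9%. At least 5 cholinergic UMIs left 10 untreated members, 70% with *Isl1* and 100% with *Nefm*, and 4OH-tamoxifen members with medians of 9715 UMIs, 3682 genes and 14.1% mitochondrial UMIs, 67.7% with *Isl1*, 100% with *Nefm* and 85.9% with *Chodl*. Without the early oligodendrocyte barcodes *Nefm* was found in 100% and 95.4%. Thinned to 2000 UMIs, *Isl1* was found in 15% and 18.5% and *Chodl* in 51.1% of 4OH-tamoxifen members. Counts of genes are given with the number of genes compared, which differed between settings. Genes higher and lower between *Malat1* groups numbered 594 and 566 of 4690 at a limit of 2%. They numbered 728 and 195 of 3097 with all 3 genes and 619 and 318 of 3751 at 10% mitochondrial UMIs. At each of these settings calls came from the 4OH-tamoxifen library alone (868 and 646 of 4782 with no other change) because the untreated library had under 20 members. The genes numbered 255 and 198 of 7507 with at least 10 CPM and 5 UMIs and 4 and 20 of 438 after thinning. They numbered 31 and 14 of 751 with at least 5 cholinergic UMIs, and 8 and 10 of 561 if the largest member was also left out. Higher genes alone numbered 123 of 1949 at 4%, 25 of 1683 by the mean of each barcode's own CPM and 12 of 1518 without the largest member. Against other neurons the counts in the same order were 407 and 323 of 4514 at 2% and 476 and 449 of 4536 with all 3 genes. They were 309 and 307 of 3855 at 10% mitochondrial UMIs, 403 and 287 of 4532 in the 4OH-tamoxifen library alone and 18 and 103 of 1219 after thinning. Higher genes alone numbered 132 of 3316 at 4% and 361 of 8146 with at least 10 CPM. They numbered 42 of 2724 without the largest member and 19 of 2424 with at least 5 cholinergic UMIs and without it. Between libraries the counts were 359 and 45 of 1956 after thinning and 273 and 453 of 3030 centred on the median. Lower genes alone numbered 168 of 2959 by own CPM, 1429 of 8101 with at least 10 CPM and 144 of 2759 without the early oligodendrocyte barcodes. The settings of 2%, all 3 genes and 10% mitochondrial UMIs gave no comparison of libraries, because the untreated library had under 20 members. With at least 5 cholinergic UMIs the log2 ratio nearest to no change reversed for *Apod* (0.69), *Trf* (0.69), *Mog* (1.20) and *Gsn* (0.28). With the largest member also left out it was 0.97, 1.16, 1.67 and 0.75 for these genes and −0.058 for *Nptn*. Without the early oligodendrocyte barcodes *Pdcd4* between libraries stood at 0.48. The cause of each move was not tested. The other 133 counts and shares moved by less than their error, or for counts by less than 1.5 times. The settings with at least 5 cholinergic UMIs, without the early oligodendrocyte barcodes, without the largest member and with the 4OH-tamoxifen library alone were chosen after seeing the data. The first of these required 10 barcodes per group (9 if the largest member was also left out) and the second 15, against 20 elsewhere. No test between conditions, paired or not, was possible because each condition was 1 library. Groups of barcodes were compared within each library, without a test.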

Other observations

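Some genes varied between 4OH-tamoxifen members beyond Poisson counting. The squared coefficient of variation beyond counting was 24.8 for *Sst* and 16.6 for *Penk*. It was 6.87 for *Pdcd4*, 6.14 for *Pcp4*, which encodes a calmodulin-binding protein, and 6.08 for *Mag*. It was 5.62 for *Gpr17*, which helped to define the early oligodendrocyte barcodes, and 3.32 and 3.22 for the secretory granule gene *Scg2* and for *Nts*.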
